A study of Homo sapiens with 8 samples.

Results

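The clustered protocadherins are cell-surface adhesion proteins of the cadherin family, encoded side by side on human chromosome 5 in the alpha, beta and gamma subclusters. The 50 genes described here were chosen by name, with no measured value in the rule but with earlier results of these data known. They are 15 alpha genes (PCDHA1 to PCDHA13, PCDHAC1 and PCDHAC2), 16 beta genes (PCDHB1 to PCDHB16) and 19 gamma genes, of which 12 are of the A type and 7 of the B type. All 50 were found among the 19962 protein-coding genes of chromosomes 1 to 22 and X in GENCODE release 44 on hg38. They lie on the plus strand of chromosome 5, between the start of PCDHA1 at base 140786136 and the end of the PCDHGA12 first exon at base 141433183. The 3 gamma genes of the C type were left out.

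Each alpha and gamma gene has its own promoter and its own large first exon, which codes for the extracellular cadherin repeats and the membrane span and is spliced to small constant exons shared by the whole subcluster. Beta genes are complete within their large exon. In neurons a cell switches on a few of these promoters, a choice in which CTCF and cohesin take part, and the resulting mix of proteins lets its branches recognise each other. The genes that are not chosen are kept silent by DNA methylation and by trimethylation of lysine 9 of histone H3 (H3K9me3), a mark of heterochromatin that SETDB1 and other methyltransferases place. Trimethylation of lysine 4 (H3K4me3) marks promoters in use.

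Both marks were mapped by native chromatin immunoprecipitation and sequencing in SUM159, a human triple-negative breast cancer cell line. All cells had been transduced with a single lentiviral vector (pLV-KRAB in the labels), selected with puromycin, that expresses dCas9-KRAB, a nuclease-dead Cas9 fused to the KRAB repressor domain, from the human ubiquitin C promoter. Cells labelled All gRNA also carried 4 guides against the promoter of ZEB1, and cells labelled No gRNA carried the vector without a guide. The libraries came from bulk populations of such cells, 2 per mark and group, 8 in all, labelled as biological replicates with no word on separate cultures. The cell line was not checked against marker genes, since no transcripts were measured here. The question asked of the protocadherins was where the marks lay along the array and whether their extent differed between guide and control cells.

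The deposited lists hold the position and strength of peaks without read numbers, and how deeply each library was sequenced is unknown. Values below are the share of a window covered by peaks, in percent, either with peaks at q ≤ 0.05 or with all deposited peaks, which reached down to a −log10 p of 1.00. The H3K9me3 lists were unequal in strength. At q ≤ 0.05 No gRNA replicate 1 held 10551 peaks and covered 97.6 Mb, against 188.1 to 238.1 Mb in the other 3 libraries, whereas all deposited peaks covered 722.9 to 769.6 Mb in each. At the guides' target, H3K9me3 covered 65.5% and 69.2% of the ZEB1 transcription start site (TSS) ± 1 kb in the All gRNA libraries and 0% in both No gRNA libraries with all deposited peaks, but at q ≤ 0.05 only All gRNA replicate 2 had it. H3K4me3 there was 100% in the libraries labelled All gRNA replicate 2 and No gRNA replicate 2 and 0% in the remaining libraries, which goes against the labels. The names under which these lists were deposited also disagree with the labelled condition for 2 of the 4, those labelled All gRNA replicate 2 and No gRNA replicate 1. H3K4me3 libraries are therefore called by their label throughout, and no direction between groups is drawn from them.

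Nearly all protocadherin promoters carry a short conserved sequence element upstream of the start, whose core is CGCT. On the gene strand CGCT was found 31 to 100 bases before the start of the first exon in 45 of the 50 members, against 27.2% of all 19962 promoters. Anywhere from 250 bases before to 50 bases after the start, on either strand, 49 of 50 members held it, the exception being PCDHA9. The same window held CGCT in 82.5% of all promoters. The element of 8 members whose H3K9me3 values are described below is shown with CGCT in capitals, followed by the CGCT of PCDHAC2 and PCDHB1. PCDHAC2 and PCDHB1 are known to lack the conserved element, and their letters around CGCT differ from the rest. Each run is 32 bases of the plus strand of chromosome 5 in hg38, 5′ to 3′, and ends before the start of the first exon.
PCDHA1, chr5:140786088-140786119: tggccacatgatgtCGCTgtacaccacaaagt
PCDHA4, chr5:140806981-140807012: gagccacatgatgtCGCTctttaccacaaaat
PCDHA8, chr5:140841132-140841163: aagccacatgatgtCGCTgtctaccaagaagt
PCDHB2, chr5:141094546-141094577: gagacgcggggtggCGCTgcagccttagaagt
PCDHB4, chr5:141121725-141121756: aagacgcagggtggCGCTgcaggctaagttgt
PCDHB10, chr5:141192301-141192332: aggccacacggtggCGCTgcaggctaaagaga
PCDHGA3, chr5:141343769-141343800: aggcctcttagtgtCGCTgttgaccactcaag
PCDHGA5, chr5:141364109-141364140: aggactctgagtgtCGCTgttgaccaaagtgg
PCDHAC2, chr5:140966421-140966452: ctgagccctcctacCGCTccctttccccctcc
PCDHB1, chr5:141051276-141051307: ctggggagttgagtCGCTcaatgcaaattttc

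The letters beside the core differed by subcluster. The words given here were picked as the 10-base words most shared among the subcluster's own promoters. Their frequency among these promoters was thus high by choice. The word ATGATGTCGC was present in 9 of 15 alpha promoters and in 10 of all 19962 promoters. The word GGTGGCGCTG was present in 13 of 16 beta promoters and in 0.255% of all promoters, and GCGCCGCTGT in 10 of 19 gamma promoters and 0.145% of all. These are matches of letters, and binding of CTCF was not measured in these data.

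H3K9me3 lay over the array as a broad domain that was more complete over the first exons than between them. From the PCDHA1 start to the end of the last first exon, 647048 bases, peaks at q ≤ 0.05 covered 55.5% and 55.9% in the All gRNA replicates 1 and 2, and 3.30% and 45.6% in the No gRNA replicates 1 and 2. Counting every deposited peak, the shares became 77.4%, 78.1%, 65.8% and 66.7% in the same order. The first exons of the 50 members were covered to 89.99%, 85.9%, 7.22% and 84.6% on average at q ≤ 0.05. Over all 19962 genes the first exons were covered to 2.66%, 2.75%, 0.990% and 3.25%. The members thus exceeded all genes by 64.5 ± 38.9 percentage points (SD, n = 4 libraries), in 4 of 4 libraries, with an exact two-sided sign-flip permutation p of 0.125, the smallest that 4 libraries can give. As the members were chosen with earlier results of these data known, this excess is a description of them. The 405 other genes with a first exon of 2 kb or more, matched to the members by length alone, were covered to 4.40%, 3.73%, 1.27% and 7.41%.

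**Figure D1:**
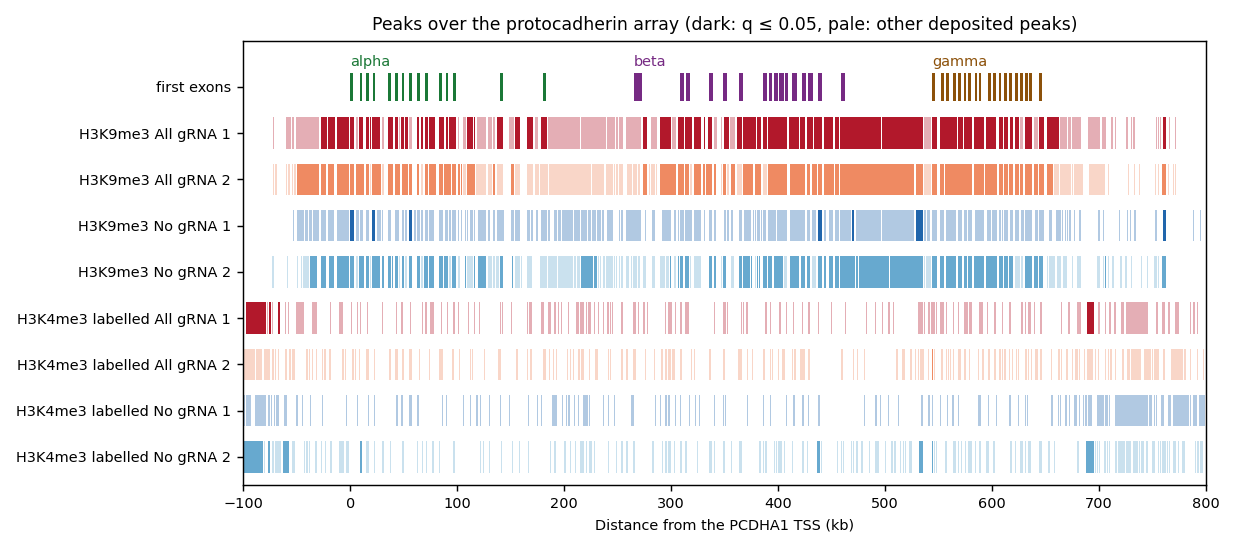
Peaks along the protocadherin array against the distance from the PCDHA1 start (kb), 1 row per library, with first exons in the top row coloured by subcluster, dark bars for peaks at q ≤ 0.05 and pale bars for the other deposited peaks. H3K9me3 covers the array in each library with all deposited peaks but only a few places in No gRNA replicate 1 at q ≤ 0.05, and H3K4me3 at q ≤ 0.05 covers at most 1.396% of it.

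In No gRNA replicate 1 the members had peaks, but most were below the threshold on q. At q ≤ 0.05, 46 of 50 first exons had no coverage there, against 3, 5 and 5 in All gRNA replicates 1 and 2 and No gRNA replicate 2. With all deposited peaks every first exon of the 50 members was covered to 50% or more in each of the 4 libraries. The same held for 1231 of all 19962 genes. Mean shares were then 95.7%, 94.5%, 92.7% and 93.5%, and the excess over all genes was 79.6 ± 2.54 points (SD, n = 4 libraries). The peaks were strong within their own lists and modest in enrichment. The median member peak stood at the 97.1st, 97.7th, 89.98th and 95.4th percentile of its list by q, with a median fold enrichment of 2.11, 2.08, 1.93 and 2.02.

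**Figure D2:**
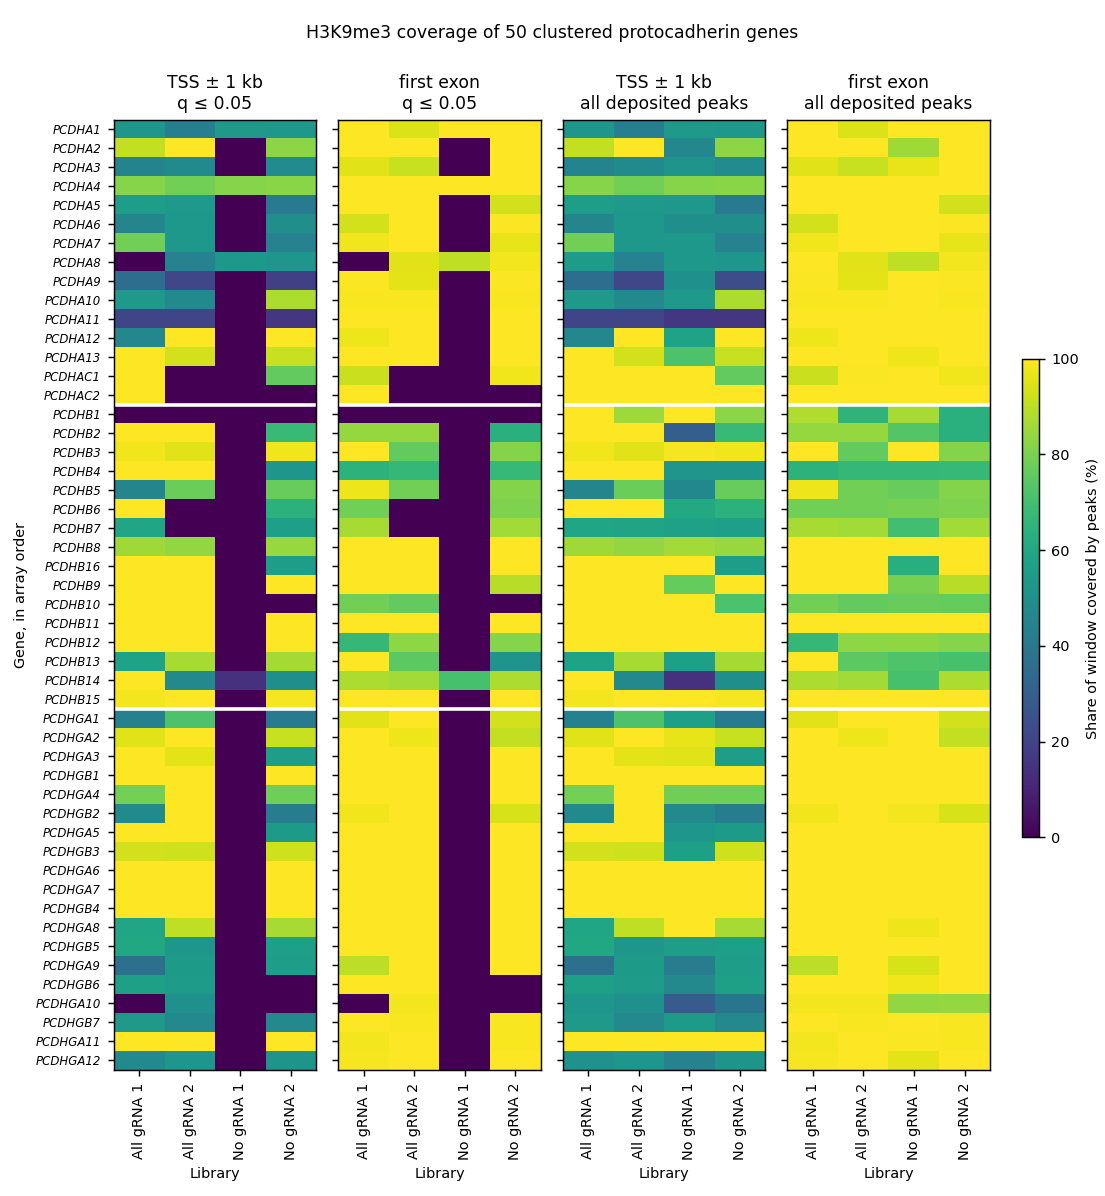
H3K9me3 share (%, colour) of the TSS ± 1 kb and of the first exon in each of the 4 libraries, for the 50 genes in array order, with white lines between alpha, beta and gamma. The first exons are near 100% in most rows, the TSS windows are partly covered, and No gRNA replicate 1 is at 0 in 46 of 50 rows at q ≤ 0.05.

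Within the alpha subcluster, PCDHA4 and PCDHA1 were covered in every library. The PCDHA4 first exon was at 100% in all 4 libraries at q ≤ 0.05, and that of PCDHA1 at 100%, 94.7%, 100% and 100%. PCDHA2 came next at 100%, 100%, 0% and 100%, and 39 of the 50 members were likewise covered to 50% or more in exactly 3 libraries. PCDHA8 differed from its neighbours, with 0% in All gRNA replicate 1, 95.4% in All gRNA replicate 2, and 90.4% and 98.4% in the No gRNA libraries. PCDHA8 was at 100% in All gRNA replicate 1 as well once all deposited peaks were counted, its peak there having a −log10 q of 1.07, below the threshold.

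The C-type alpha genes PCDHAC1 and PCDHAC2, which neurons tend to express in most cells rather than by choice, were the least covered of the subcluster at q ≤ 0.05. The PCDHAC1 first exon was at 92.1% in All gRNA replicate 1 and 97.8% in No gRNA replicate 2, and at 0% in the remaining libraries. The PCDHAC2 first exon was at 100% in All gRNA replicate 1 and at 0% in the remaining libraries. Neither pattern followed the groups. PCDHAC2 was at 100% in all 4 libraries with all deposited peaks, and PCDHAC1 between 92.1% and 100%.

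Among the beta genes PCDHB14 had the highest mean first-exon share at q ≤ 0.05, with 87.8%, 86.3%, 70.9% and 87.5%. PCDHB8, PCDHB16, PCDHB11 and PCDHB15 were each at 100% in 3 libraries and at 0% in No gRNA replicate 1. PCDHB1, which stands apart from the other beta genes at the 5′ end of their array, was at 0% in all 4 libraries. Its exon was covered by all deposited peaks to 88.2%, 65.0%, 86.8% and 63.5%, with no order by group. PCDHB6 was at 78.8%, 0%, 0% and 80.8% at q ≤ 0.05. PCDHB5, a gene named by the study, was at 97.4%, 78.7%, 0% and 81.6% in its first exon and at 45.7%, 77.6%, 0% and 76.8% in its TSS window. Replicates of one group were thus as far apart as the groups. The study reports a gain of H3K9me3 at PCDHB5 in an interval past the end of this exon. That interval lies outside both windows, so these values do not test the reported gain.

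In the gamma subcluster, 10 of 19 genes shared the mean of 75.0% that full coverage in 3 libraries gives, PCDHGA3, PCDHGB1 and PCDHGA4 among them. No gamma first exon was covered in No gRNA replicate 1 at q ≤ 0.05. PCDHGA2 was at 100%, 97.4%, 0% and 90.8%. PCDHGA10 had the lowest coverage, with 98.3% in All gRNA replicate 2 and 0% in the other 3 libraries, followed by PCDHGB6 with 100%, 100%, 0% and 0%. PCDHGA10 was at 98.2%, 98.3%, 83.6% and 84.2% with all deposited peaks.

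In beta the coding part of the exon was covered more than the stretch after it. The coding bases of the 50 first exons were covered by all deposited peaks to 99.3%, 99.5%, 96.9% and 99.4%. Beta exons, with a median length of 3846.5 bases against 2532 in alpha and 2599 in gamma, continue past the stop codon. In the 15 beta genes with 300 or more bases there, this last stretch was covered to 64.6%, 49.3%, 51.4% and 45.4%. The coding part exceeded it by 45.1 ± 8.74 points (SD, n = 4 libraries), in 4 of 4 libraries, with an exact sign-flip permutation p of 0.125. At q ≤ 0.05 the excess was 29.6 ± 20.2 points, also in 4 of 4 libraries. Alpha and gamma first exons end with their coding part and allow no such comparison. In gamma the median peak ended 1381, 1500, 856 and 973 bases past the exon end.

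At alpha genes the peak edges often fell near the exon edges. In the 4 libraries the alpha peak started within 200 bases of the first exon's start in 8, 9, 10 and 8 of 15 genes, and ended within 200 bases of its end in 7, 5, 8 and 9. Both edges did so in 4, 3, 5 and 5 alpha genes. Gamma starts did so in 7, 7, 10 and 10 of 19 genes and gamma ends in 3, 3, 4 and 2. For beta the counts were 3, 2, 4 and 4 of 16 genes for starts and 1, 0, 0 and 0 for ends. For PCDHA3, the exon of 2535 bases had peaks that started at +73, +15, −60 and +9 bases from the exon start and ended at −41, −200, −81 and +14 bases from its end. For PCDHA10, the peak of All gRNA replicate 2 started at +26 bases from the exon start and ended at +40 bases from its end, and that of No gRNA replicate 1 at −88 and +54. The PCDHA10 TSS window was covered to 54.2%, 48.0%, 53.7% and 87.6% by all deposited peaks, so coverage reached further upstream in No gRNA replicate 2. PCDHB4 showed the same start without the same end, at −43 and −53 bases in the No gRNA libraries, with the peaks ending at −1278 and −1251 bases from the exon end.

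The mark was lower between the exons than over them. In alpha the exons exceeded the sequence between them by 49.4 ± 22.9 points at q ≤ 0.05 and by 47.8 ± 7.60 points with all deposited peaks (SD, n = 4 libraries), positive in 4 of 4 libraries with exact sign-flip permutation p = 0.125. The excess was 17.9 ± 18.9 and 22.3 ± 9.68 points in beta. In gamma it was 29.5 ± 19.8 points in 3 of 4 libraries at q ≤ 0.05, No gRNA replicate 1 having no peak at all, and 43.3 ± 6.15 points in 4 of 4 with all deposited peaks. In alpha, a bin of 100 bases beginning 1000 bases before the exon was covered by all deposited peaks in 20.0%, 26.7%, 20.0% and 13.3% of genes, and a bin beginning 1000 bases into it in 100% of them in each library.

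**Figure D3:**
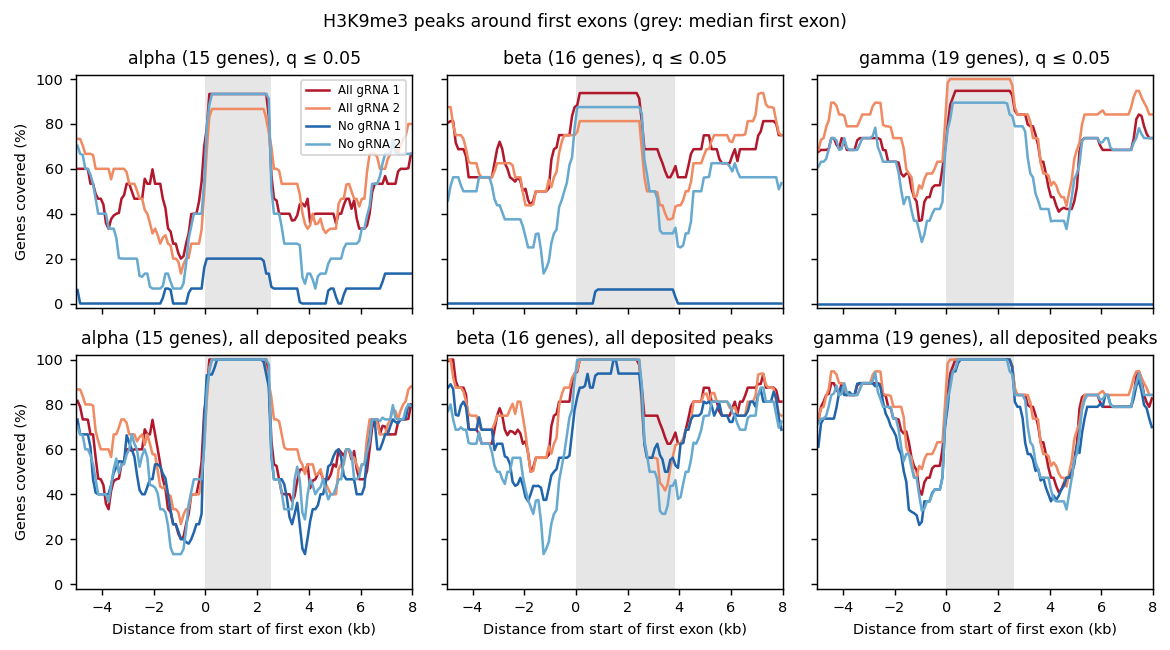
Share of genes (%) covered by H3K9me3 peaks in 100-base bins against the distance from the start of the first exon (kb), 1 line per library, by subcluster and peak threshold, the grey band marking the median first exon. The alpha and gamma lines of the all-peaks panels stand at 100% 1 kb inside the exon and are lower on both sides.

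Base composition moved with this pattern. The median GC content of the members' first exons was 53.7%, against 34.7% in the 2 kb before them, and it was higher in the exon for 50 of 50 members. It was 56.7% against 33.5% in alpha, 47.7% against 34.7% in beta and 53.7% against 36.3% in gamma. Exon sequence was also partly repeated. A median of 9.16% of the 61-base words of a first exon, the length of a read, occurred elsewhere in the 900 kb around the array, with a maximum of 42.0% at PCDHB8 and 32.1% at PCDHB10. PCDHB8 shared 770 such words with PCDHB13, and PCDHB10 shared 646 with PCDHB9. The part of GC content and of repeated words in the coverage was not tested.

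Averaged over the 50 members, the TSS window, which takes in the first 1000 bases of the exon, was covered less than the exon as a whole. The mean over members was 72.5%, 70.2%, 4.06% and 63.8% at q ≤ 0.05, against 2.66%, 2.67%, 1.02% and 3.16% over all genes. The exon exceeded the TSS window by 14.3 ± 7.72 points (SD, n = 4 libraries), in 4 of 4 libraries, with exact sign-flip permutation p = 0.125. Alpha TSS windows were covered to 60.5%, 50.5%, 12.6% and 56.3%. Beta windows reached 84.0%, 74.4%, 0.893% and 68.2%, and gamma windows 72.3%, 82.3%, 0% and 66.0%. Beta first exons were at 84.1%, 70.3%, 4.43% and 73.2%, so in beta the order of exon and window varied between libraries. The annotated TSS of PCDHA9, PCDHA11 and PCDHGA8 lies 610, 774 and 2476 bases before the start of the first exon used here. The TSS windows of PCDHA9 and PCDHA11 thus hold less of their exon. The PCDHGA8 window holds none of its own and takes in the end of the PCDHGB4 first exon.

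Between guide and control cells, the mean H3K9me3 share of the members was higher in All gRNA cells at q ≤ 0.05, but 1 control library set most of the difference. The TSS windows were at 71.4% ± 1.60 in All gRNA and 33.9% ± 42.2 in No gRNA (SD, n = 2 each), a difference of 37.5 points with an exact two-sided permutation p of 0.33, the smallest that 2 against 2 libraries allow. Without No gRNA replicate 1 the difference was 7.60 points. The first exons were at 88.0% ± 2.87 and 45.9% ± 54.7 (SD, n = 2 each), a difference of 42.1 points, exact permutation p = 0.33, and 3.37 points without No gRNA replicate 1. Using all deposited peaks, the first exons differed by 2.04 points, 95.1% ± 0.844 against 93.1% ± 0.548. The TSS windows differed by 8.19 points, 77.9% ± 1.69 against 69.7% ± 1.61, with no overlap of the groups and exact permutation p = 0.33. Over all genes the TSS windows then differed by −0.44 points. The depth of the libraries is unknown, so a weaker No gRNA replicate 1 and less mark in those cells cannot be told apart at q ≤ 0.05.

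A member was called different where the lowest library of one group stood at least 25 points above the highest of the other. At q ≤ 0.05, 7 of 50 members were called higher in All gRNA in the TSS window, PCDHB2, PCDHB4, PCDHB16, PCDHB10, PCDHGA3, PCDHGA5 and PCDHGB6, and none lower, against 0.260% and 0.0250% of all genes. In the first exon PCDHB10 and PCDHGB6 were called higher and none lower, against 0.220% and 0.0150% of all genes. Since No gRNA replicate 1 was at 0 for nearly all members, these calls rested on No gRNA replicate 2, and without replicate 1 the TSS window gave 7 members higher and 1 lower, against 0.286% and 1.02% of all genes. Among all deposited peaks, PCDHB2, PCDHB4, PCDHB6 and PCDHGA5 were called higher in the TSS window and none lower, against 1.36% and 1.08% of all genes. No first exon was then called in either direction, against 1.24% and 0.967% of all genes.

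PCDHB2 had TSS window shares of 100% and 100% in All gRNA and, with all deposited peaks, 30.2% and 67.6% in No gRNA. Relative to the exon start, its peak began at −1632 and −1607 bases in All gRNA and at +388 and −361 bases in No gRNA. PCDHB4 was at 100% and 100% against 52.2% and 52.7%, with peaks beginning at −1021 and −3142 bases in All gRNA against −43 and −53 bases in No gRNA. Both genes ended at similar places within the exon in most libraries, so the groups differed at the upstream side.

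PCDHB6 was at 100% and 100% against 60.8% and 64.4% with all deposited peaks, its peaks beginning at −2369 and −2313 bases in All gRNA and at −215 and −287 bases in No gRNA. At q ≤ 0.05 it was not called, because the All gRNA replicate 2 peak had a −log10 q of 1.13. PCDHGA5 was at 100% and 100% against 52.7% and 54.4%. Its All gRNA peaks began at −4113 and −21254 bases and took in other gamma genes, whereas its No gRNA peaks began at −53 and −88 bases.

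The remaining called members lost their call with all deposited peaks. PCDHB16 had TSS window shares of 100% in both All gRNA libraries at q ≤ 0.05, where the No gRNA libraries were at 0% and 55.6%, but the latter were at 100% and 55.6% with all deposited peaks. PCDHB10 was at 100% and 100% against 0% and 0% at q ≤ 0.05, and against 100% and 71.6% with all deposited peaks. Its first exon was at 78.6% and 75.9% against 0% and 0% at q ≤ 0.05, and against 76.9% and 76.4% with all deposited peaks. PCDHGA3 was at 100% and 96.1% against 0% and 56.2%, and PCDHGB6 at 57.0% and 55.2% against 0% and 0%. The No gRNA values of PCDHGB6 with all deposited peaks were 47.2% and 56.9%, which overlap the All gRNA values. All 4 genes had a deposited peak in every library.

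The 2 kb before the TSS, a window chosen after the data were seen, also differed between the groups across the array. With all deposited peaks the mean share of the 50 members was 57.2% and 59.1% in the All gRNA libraries, whereas No gRNA had 43.2% and 43.6%, 58.2% ± 1.33 against 43.4% ± 0.228 (SD, n = 2 each). The difference of 14.8 points had an exact permutation p of 0.33, the smallest possible, and stayed between 13.8 and 15.7 points when any 1 library was left out. It was 22.7 points in beta, where All gRNA stood at 68.6% and 68.3% and No gRNA at 49.1% and 42.5%. It was 14.6 points in gamma, with 62.0% and 66.4% against 45.6% and 53.7%, and 6.56 points in alpha, with 39.0% and 40.05% against 34.1% and 31.9%. The groups did not overlap in any subcluster at this setting. Over all genes the same window stood at 12.2% and 13.7% against 13.3% and 14.9%, a difference of −1.16 points. The difference was not particular to the upstream side. Between the first exons, All gRNA exceeded No gRNA by 12.5 points in alpha, 20.9 in beta and 11.0 in gamma with all deposited peaks. The genome-wide length covered by all deposited peaks was 739.8 and 769.6 Mb in All gRNA and 722.9 and 724.0 Mb in No gRNA.

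By gene, the 2 kb before the TSS were called higher in All gRNA at PCDHB2, PCDHB4, PCDHB6, PCDHGB2 and PCDHGA5 with all deposited peaks and lower at none, against 1.33% and 1.47% of all genes. At q ≤ 0.05 there were 12 higher, PCDHA8, PCDHA9, PCDHB2, PCDHB4, PCDHB16, PCDHB10, PCDHB12, PCDHB14, PCDHGA3, PCDHGB2, PCDHGA5 and PCDHGA10, and none lower, against 0.291% and 0.0351% of all genes. PCDHGB2, which joined the list here, was covered to 43.8% and 100% in All gRNA and to 2.65% and 8.0% in No gRNA. In 10 members this window reached into the first exon of another member. At q ≤ 0.05 the mean difference was 33.7 points, and 16.4 points without No gRNA replicate 1. With the lists cut to equal covered length it was 16.2 points, but the alpha groups overlapped, at 2.36% and 17.8% against 3.67% and 7.87%, and the members called higher were PCDHGB3 and PCDHGA6, with none lower, against 0.271% of all genes higher and 0.0501% lower.

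With each list cut to the same covered length, that of No gRNA replicate 1, the members' first exons were at 37.2%, 40.6%, 7.22% and 26.4%, and All gRNA exceeded No gRNA by 22.1 points with exact permutation p = 0.33. PCDHA12, PCDHB5, PCDHGB3 and PCDHGA6 were then called higher in both windows and PCDHA8 lower, against 0.306% and 0.0501% of all genes in the TSS window and 0.281% and 0.0451% in the first exon. None of these 5 genes was among those called at q ≤ 0.05 in these windows.

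Peaks in the All gRNA lists were wider, at the members and elsewhere. The median width of the peak at a member's first exon was 5402 and 5366 bases in All gRNA and 3678.5 and 3745.5 bases in No gRNA, groups that did not overlap, with exact permutation p = 0.33. At the first exons of other genes that had a peak, the median width was 2622 and 2352 bases against 1785.5 and 1789 bases, and over all peaks of a list the mean was 2604 and 2525 bases against 1983 and 1957. The part of this list-wide difference in the members' values, those upstream of the TSS included, was not tested. The median start of the members' peaks lay at −764 and −859.5 bases from the exon start against −129 and −396.5 bases. Their median end lay at +919 and +1075.5 bases from the exon end against +329 and +441 bases. A peak reached another member's exon for 11 and 13 members in All gRNA and for 4 and 6 in No gRNA. In beta, 1 peak in each All gRNA library ran from PCDHB8 to PCDHB10 across 4 genes, chr5:141177078-141194941 with 17864 bases in replicate 1 and 17738 bases in replicate 2. The No gRNA lists split the same stretch, the widest pieces having 6910 and 8791 bases. In gamma, 1 peak of 24847 bases took in the 5 genes from PCDHGA3 to PCDHGA5 in All gRNA replicate 2, where replicate 1 had one of 15360 bases from PCDHGA2 to PCDHGB1. Members under 1 peak share its value and are not independent of each other.

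H3K4me3 was sparse at the protocadherin promoters. At q ≤ 0.05 the TSS windows of the members were covered to 0%, 0.537%, 0% and 3.09% in the libraries labelled All gRNA replicates 1 and 2 and No gRNA replicates 1 and 2, against 31.3%, 10.8%, 8.82% and 50.5% over all genes. Members were below all genes by 24.5 points in the mean, −24.5 ± 18.4 (SD, n = 4 libraries), in 4 of 4 libraries, with exact sign-flip permutation p = 0.125. Only 3 members had any such peak in the TSS window. PCDHA2 was at 52.9%, PCDHB14 at 59.6% and PCDHGA1 at 42.1% in 1 library, labelled No gRNA replicate 2, and PCDHGA1 also at 26.8% in that labelled All gRNA replicate 2.

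The members' TSS windows, counting all deposited peaks, were at 32.2%, 42.1%, 22.6% and 37.4%, and all genes at 68.8%, 72.5%, 65.9% and 74.3%. No member was covered to 50% or more in all 4 libraries and 6 were in 3, PCDHA7, PCDHB1, PCDHB2, PCDHGA4, PCDHGA6 and PCDHGA11, 6 of 50 members against 66.3% of all genes in 3 or 4. A further 13 members reached 50% in 2 libraries. PCDHGA11 was at 100%, 55.5%, 0% and 100%. PCDHB1 was at 79.4%, 73.2%, 40.3% and 100%, and H3K9me3 covered its TSS window to 100%, 85.2%, 100% and 82.5% at this setting. At q ≤ 0.05 neither mark covered this window in any library. PCDHA7 was at 77.3%, 58.5%, 66.7% and 37.2%, and PCDHB2 at 35.03%, 59.7%, 71.2% and 73.2%.

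**Figure D4:**
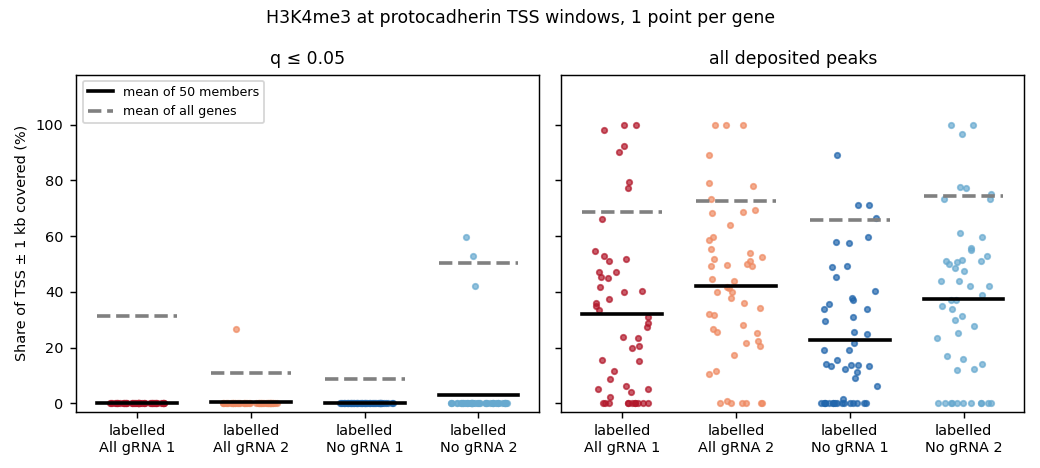
H3K4me3 share (%) of the TSS ± 1 kb in the 4 libraries, named by their labels, at q ≤ 0.05 and with all deposited peaks, with 1 point per member, a black line for the members' mean and a dashed line for that of all genes. The members' mean lies below that of all genes in each library at both settings.

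By label, the H3K4me3 mean of the members differed by −1.28 points at q ≤ 0.05 and by 7.13 points with all deposited peaks, 37.2% ± 6.99 against 30.02% ± 10.5 (SD, n = 2 each), exact permutation p = 0.67. At q ≤ 0.05 no member was called in either direction, against 0.135% of all genes higher and 1.62% lower. With all deposited peaks PCDHAC2 and PCDHGA2 were called higher and none lower, against 1.78% and 2.21% of all genes. PCDHAC2 was at 92.5% and 69.3% against 0% and 0%, and PCDHGA2 at 90.4% and 68.5% against 33.8% and 0%. Since the ZEB1 values go against the labels, these differences compare libraries and not conditions.

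The genes around and between the subclusters were mostly without the mark at q ≤ 0.05. Of 12 flanking genes, 10 had no H3K9me3 in the TSS window in any library, among them the C-type gamma genes PCDHGC3, PCDHGC4 and PCDHGC5 and the neighbours HARS1, ZMAT2, DIAPH1 and HDAC3. TAF7, a subunit of the general transcription factor TFIID, and SLC25A2, a mitochondrial carrier, lie between beta and gamma. TAF7 was at 96.2%, 94.6%, 91.2% and 91.8%, and SLC25A2 at 100%, 100%, 0% and 100%. The interval from beta to gamma was covered to 87.9%, 88.2%, 10.8% and 85.4%, close to the first exons, whereas the interval from alpha to beta was at 0%, 0%, 0% and 8.73%. The shared constant exons of gamma were at 0% in all 4 libraries. Those of alpha were at 0% in 3 and at 94.8% in No gRNA replicate 2. Much of this contrast depended on the threshold. The interval from alpha to beta was at 83.7%, 74.0%, 62.7% and 54.4% with all deposited peaks. That from beta to gamma was then at 95.4%, 95.5%, 88.5% and 91.95%. The constant exons of alpha were at 100%, 65.4%, 64.7% and 100% at this setting, and those of gamma at 53.7%, 22.7%, 20.1% and 79.97%. Counting all deposited peaks, PCDHGC4 and PCDHGC5 were called higher in All gRNA, 2 of 12 genes beside 1.36% of all genes, PCDHGC4 with 100% and 100% against 5.85% and 61.3% and PCDHGC5 with 57.7% and 100% against 0% and 0%.

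Protocadherins outside the array had less of the mark than the members at q ≤ 0.05. Of 10 non-clustered protocadherin genes, 3 had H3K9me3 in the TSS window at q ≤ 0.05, PCDH10, PCDH11X and PCDH17, each in No gRNA replicate 2 alone, with 100%, 100% and 50.1%. Counting all deposited peaks, the 10 genes were at 40.5%, 36.1%, 35.8% and 41.6% in the TSS window and 41.6%, 42.7%, 45.2% and 47.7% in the first exon, above the 12.4% to 15.4% and 12.5% to 16.6% of all genes and below the members. PCDH10 and PCDH19 were then at 100% in both windows in all 4 libraries, and PCDH9, PCDH12, PCDH15 and PCDH20 had first exons at 0% in all 4. None of the 10 was called in either direction. Of 14 genes for regulators of the array and of H3K9 methylation, none had H3K9me3 at q ≤ 0.05 in any library. Their TSS windows were covered by H3K4me3 to 42.9%, 14.3%, 21.4% and 64.3% at q ≤ 0.05, and EHMT1, an H3K9 methyltransferase, was the only one called, with 0% under both All gRNA labels and 100% under both No gRNA labels, where 1.62% of all genes were called lower. With all deposited peaks EHMT1 was at 100% in all 4.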

How the data were processed

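Native chromatin immunoprecipitation of H3K9me3 and H3K4me3 was analysed in 8 SUM159 libraries, grouped by their labels. The authors deposited 1 list of broad peaks per library, replicates not pooled, with a score, a fold enrichment (a ratio), and −log10 p and −log10 q values per peak. The study's methods name fastp, bowtie2 and MACS2 on hg38, whereas the submitters' processing notes list bcl2fastq 2.17, Trimmomatic 0.33, Bowtie 1.1.2 and MACS2 2.1.0, so the versions used are uncertain. The handling of reads that map to several places is not given in the sources used here, and no counts are, so depth and counting error are unknown.

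Peaks at q ≤ 0.05 were merged per library, and the share of each window covered was computed for 19962 protein-coding genes (GENCODE release 44, hg38) over the TSS ± 1 kb and the first exon of the Ensembl canonical transcript. Sequences and motifs were read from the hg38 reference. A call needed a gap of 25 points between the groups. Group means were compared by exact two-sided permutation over 6 labellings, smallest p 0.33, and values within libraries by exact sign flips, smallest p 0.125; p-values measure only the spread between these libraries. Alternatives were all deposited peaks, q ≤ 0.01, equal covered length, other windows and gaps, leaving out each library and the replicate block. Named genes were all called members, the 3 highest and 3 lowest of each subcluster by first-exon share, members with H3K4me3 over 50% in 2 or more libraries (given as counts with examples), PCDHB5, PCDHB1, PCDHAC1 and PCDHAC2, and the fixed lists of flanking, non-clustered and regulator genes. Other genes were named as examples after their values were seen. The members and lists were chosen with earlier results of these data known, and the 2 kb upstream window and the comparison with long first exons after the data were seen. The scripts were tested on simulated data (Python 3.11.15, numpy 2.4.6, pandas 2.3.3, scipy 1.17.1).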

Additional observations from a re-analysis of the deposited data

How the results depend on the processing

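Of 95 alternative values for 9 results, 72 kept their direction and stayed within the spread or 1.5 times the count, 19 moved and 4 reversed. The cause was not tested. For differences in share, leaving out 1 library cannot shift the value beyond this spread, so such values could reverse but not count as moved. The TSS difference of 7.60 points without No gRNA replicate 1, against 37.5 with it, was thus among those kept. With all deposited peaks the first-exon difference between groups was 2.04 points in place of 42.1, the members called were 4 in place of 7 in the TSS window and 0 in place of 2 in the first exon, and for H3K4me3 the difference reversed from −1.28 to 7.13 points, with 2 members called in place of 0. At q ≤ 0.01 the TSS difference was 0.90 points, the first-exon difference reversed to −1.35, no member was called in either window (0 and 0), the first exon exceeded the TSS window by 6.36 points in place of 14.3, and the members exceeded all genes by 17.5 points in place of 64.5. At equal covered length 5 members were called in the first exon, and the H3K4me3 difference reversed to 0.27 points. Other windows gave 3 calls (TSS ± 2 kb) and 12 (2 kb upstream, where 0.291% of all genes were called higher). A gap of 50 points gave 2. No share over all genes is given for q ≤ 0.01, TSS ± 2 kb or the gap of 50 points, so those counts are not read as results. With 1 kb added on each side the first exon exceeded the TSS window by 3.08 points.

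Leaving out 1 library in turn gave TSS differences of 7.60 to 67.3 points with 8 to 39 calls, 12 without All gRNA replicate 2 and 39 without No gRNA replicate 2, and first-exon differences of 3.37 to 80.7 points with 2 to 40 calls, 5 and 40 without the same libraries. It gave H3K4me3 differences of −2.82 to 0.27 points, the 0.27 without the library labelled No gRNA replicate 2, with 0 to 2 calls, 2 without No gRNA replicate 1. The lowest H3K9me3 differences were those without No gRNA replicate 1. Without No gRNA replicate 2, 1.44% of all genes were called higher in the TSS window and 1.36% in the first exon, and without All gRNA replicate 2, 0.651% and 0.506%. For H3K4me3, leaving out No gRNA replicate 1 (as labelled) called 20.2% of all genes lower. The first exon exceeded the TSS window by 12.1 to 18.004 points and the members exceeded all genes by 56.9 to 83.9 points, and for H3K4me3 they were below all genes by −29.7 to −16.8 points.

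With the replicate number as a replicate block, the differences were 37.5, 42.1 and −1.28 points with exact permutation p of 0.5, 0.5 and 1.0, the smallest possible being 0.5, and 9, 2 and 0 members were called. No share over all genes is given for these counts, so they are not read as results. Same-numbered libraries deviated together with correlations of −0.021 over 870 genes, −0.087 over 685 and 0.087 over 10275, so the numbers were not shown to pair the samples. With 2 libraries a group no comparison could pass 0.05, and peak lists without counts do not separate a weaker library from less mark.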
